A study of Mus musculus with 12 samples.

Results

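Deletion of Hes1 was compared with an intact, loxP-flanked Hes1 in osteoclasts that carry a Notch2 mutation, over 3 Notch2 mutant Hes1 deletion libraries and 3 Notch2 mutant Hes1 loxP libraries. These 6 of the 12 RNA libraries of the study were chosen by their titles, and the other 6 are the same 2 Hes1 states in wild type cells. All cells came from the bone marrow of male mice aged 7 to 8 weeks. Macrophages were expanded in 30 ng/ml of the growth factor M-CSF, and from day 3 they received RANKL, which drives fusion into osteoclasts, for 4 days. Both groups compared carry the Notch2 mutation, which the labels do not name. How Hes1 was deleted, in which cells, and with which Cre driver if one was used, is likewise not stated there. The design text states sex-matched littermates as controls, and the labels call the 3 libraries of a group biological replicates without saying whether each came from 1 mouse, so p-values measure the spread between these libraries.

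Notch receptors are cut after they bind a ligand on a neighbouring cell, and the freed intracellular part joins the DNA-binding protein RBPJ to switch on target genes. Hes1 is a classic Notch target, a basic helix-loop-helix protein that binds N box and class C sequences in DNA and represses nearby genes with Groucho/TLE corepressors. In the osteoclast lineage, Notch2 signalling has been linked to more osteoclast formation and bone resorption, and Hes1 has been studied as one of the genes through which it acts.

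The 6 libraries held 13832368 to 17911848 counts assigned to genes, and replicates of a group differed by more than counting noise (chi-square per gene 2.93 to 7.21). Osteoclast markers were abundant in all 6. Acp5, the gene of the stain enzyme TRAP, lay between 7855 and 9320.1 CPM (the count divided by the total of its library assigned to genes and scaled to a common total), and Mmp9, a matrix metalloproteinase, between 20399 and 25438 CPM.

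Hes1 itself (ENSMUSG00000022528, GRCm38 chromosome 16, 30064384 to 30067796) was close to the limit of detection. Its counts were 3, 2 and 2 in the Hes1 loxP libraries and 0, 1 and 1 in the Hes1 deletion libraries. No deletion library reached the lowest loxP library, but these are 7 reads against 2. The ratio of the summed counts, scaled for depth, was 0.30 with a 95% exact binomial interval of 0.0304 to 1.57 that includes 1, and the two-sided exact permutation test of the CPM gave p = 0.10, the smallest that 3 against 3 allows. In the Notch2 mutant libraries the level of Hes1 therefore gives only a weak check of the labels, and the gene was too scarce for the test across genes. In wild type cells Hes1 had 6, 11 and 6 counts with Hes1 loxP and 0, 0 and 2 with the deletion. The wild type ratio was 0.0865, with a 95% exact binomial interval of 0.00988 to 0.350 and a permutation p of 0.10. Notch2 (ENSMUSG00000027878, chromosome 3, 98013527 to 98150361) was at 163, 162 and 143 CPM with Hes1 loxP and at 162, 175 and 171 CPM with the deletion, a log2 fold change of 0.09 ± 0.06 (SE) with an edgeR adjusted p of 0.977. The exons of Notch2 overlap the annotated gene Gm42820.

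Very few genes separated the 2 groups. Of 13403 genes tested, the edgeR quasi-likelihood test called 5 at a Benjamini-Hochberg adjusted p under 0.05, which is 0.0373% of those tested. Ctsk fell (0.00746% of genes), and Celf3, Hist1h2al, Tnc and Gzmb rose (0.0298%). DESeq2 called 7 genes (0.0279% of its 25079), limma-voom 3 (0.0224%) and edgeR with no filter on low counts 110 (0.439% of 25080). Before adjustment 638 genes had p under 0.05, or 4.76%, of which 334 (2.49%) were higher and 304 (2.27%) lower with the deletion. In 1478 genes, or 11.0%, the groups did not overlap in CPM, 1085 of them higher (8.1%) and 393 lower (2.93%), a split that became 685 and 734 after TMM scaling. The median log2 fold change of all genes was -0.002.

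Ctsk (ENSMUSG00000028111, chromosome 3, 95499256 to 95509362, plus strand) encodes cathepsin K, the protease with which osteoclasts degrade bone collagen. It was at 10367, 10394 and 11132 CPM in the Hes1 loxP libraries and at 4973, 4876 and 5294 CPM in the deletion libraries. Every deletion library held less than every loxP library, and within each group the libraries lay close together. The log2 fold change was -1.11 ± 0.07 (SE, n = 3 per group), with an edgeR adjusted p of 8.89e-08. In bulk RNA a lower level can come from fewer cells that express a gene or from less RNA per cell. Which of these holds for Ctsk was not tested. The loss of Hes1 also cannot be told apart from the means used to delete it, which the labels do not state. This limit holds for every gene in the comparison. In the same comparison Mmp9 was at -0.16 ± 0.08 and Ckb, another osteoclast marker, at -0.15 ± 0.08 (SE). The median over the 19 resorption genes tested, Ctsk among them, was -0.07. No other resorption gene was called. The 250 bases before the RefSeq start of Ctsk are shown because it is the most abundant gene called (GRCm38.p6, chr3:95498960-95499209, plus strand, 46 bases upstream of the GENCODE start).

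Ctsk: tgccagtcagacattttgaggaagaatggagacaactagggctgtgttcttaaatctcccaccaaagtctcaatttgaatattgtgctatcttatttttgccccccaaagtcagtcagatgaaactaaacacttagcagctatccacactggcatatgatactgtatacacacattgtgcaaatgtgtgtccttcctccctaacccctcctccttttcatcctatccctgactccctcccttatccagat

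Celf3 (ENSMUSG00000028137, chromosome 3, 94478295 to 94492198), which encodes an RNA-binding protein best known from the nervous system, was nearly absent with Hes1 intact. Its counts were 0, 3 and 1 in the loxP libraries and 65, 47 and 58 in the deletion libraries. The groups were far apart, at a mean of 0.0746 CPM against 3.63 CPM. The ratio of summed counts was 44.6, with a 95% exact binomial interval of 17.1 to 165. Replicate 2 held 3 of the 4 loxP counts, and leaving it out gave 114. The fitted log2 fold change was 5.34 ± 0.50 (SE), with an edgeR adjusted p of 5.62e-05. Riiad1 is annotated on the opposite strand over Celf3, and since the labels do not state the strand setting of the counting, its reads may be included. The 250 bases before the Celf3 start are given for comparison with Ctsk (GRCm38.p6, chr3:94478045-94478294, plus strand).

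Celf3: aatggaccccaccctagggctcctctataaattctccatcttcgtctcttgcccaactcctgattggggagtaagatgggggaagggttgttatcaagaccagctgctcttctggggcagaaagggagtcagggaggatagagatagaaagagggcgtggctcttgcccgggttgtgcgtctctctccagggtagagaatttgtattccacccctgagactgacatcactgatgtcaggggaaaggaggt

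Hist1h2al (ENSMUSG00000091383, chromosome 13, 51202727 to 51203065), annotated as a processed pseudogene of the core histone H2A, behaved in the same way. Its counts were 1, 5 and 0 with Hes1 loxP and 77, 79 and 98 with the deletion. The ratio was 44.4, with a 95% exact binomial interval of 20.1 to 122. It was 169.98 when loxP replicate 2, with 5 of the 6 loxP counts, was left out and 28.4 when replicate 3 was. The edgeR adjusted p was 5.03e-06 for a fitted log2 fold change of 5.36 ± 0.45 (SE). Gm44341 is annotated on its opposite strand.

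The reads given to Hist1h2al cannot be placed with certainty, because H2A copies are nearly identical. Its transcript of 339 bases differs from those of Hist2h2aa1 and Hist2h2aa2, which lie on chromosome 3 at 0.746 and 0.740 Mb from the start of Ctsk, at 2 bases (99.4% identity). Counted from the 5′ end of the Hist1h2al transcript, these are C120T and T216G, with the base of Hist1h2al first. The stretch that holds both, positions 100 to 236 of the GENCODE M21 transcripts in the sense orientation, is shown with the differing bases in capitals.

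Hist1h2al: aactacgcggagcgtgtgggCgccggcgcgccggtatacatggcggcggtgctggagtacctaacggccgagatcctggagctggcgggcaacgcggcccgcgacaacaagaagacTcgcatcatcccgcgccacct
Hist2h2aa2: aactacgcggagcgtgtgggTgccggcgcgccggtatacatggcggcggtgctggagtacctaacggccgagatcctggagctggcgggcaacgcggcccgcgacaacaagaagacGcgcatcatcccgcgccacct

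Of these 2 copies on chromosome 3, Hist2h2aa2 did not take this pattern, and Hist2h2aa1 could not be judged. Hist2h2aa2 held 16, 15 and 20 counts with Hes1 loxP and 21, 35 and 16 with the deletion, which overlapped. Hist2h2aa1 held 0 in all 6 libraries. It has the same bases as Hist2h2aa2 at both differing positions, and Gm20634 overlaps it on its own strand. Its reads may therefore go unassigned, and the 0 does not show a lack of change. Within the 339 bases compared, a read has to cover 1 of the 2 differing bases to tell Hist1h2al from either copy. Sequence beyond these bases was not compared.

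Tnc (ENSMUSG00000028364, chromosome 4, 63959785 to 64047015, minus strand) encodes tenascin-C, an extracellular matrix glycoprotein made mainly by mesenchymal cells and during tissue repair. It was at 11.3, 10.4 and 11.8 CPM with Hes1 loxP and at 17.2, 19.2 and 17.0 CPM with the deletion. The groups did not overlap, and the gap was larger than the spread of either. Its log2 fold change was 0.64 ± 0.10 (SE), with an edgeR adjusted p of 0.0169. The call was lost by limma-voom and without Notch2 mutant Hes1 loxP replicate 1, Hes1 loxP replicate 2 or Hes1 deletion replicate 2 (adjusted p 0.0588, 0.0589, 0.197 and 0.144). Reads of 8030451A03Rik, annotated on the opposite strand, may be included. Tnn, the gene of the related tenascin-W, stood next in line among the higher genes, at 0.940, 0.949 and 1.69 CPM with Hes1 loxP and 3.23, 4.15 and 2.43 CPM with the deletion. Its groups did not overlap either, but its log2 fold change of 1.402 ± 0.26 (SE) had an edgeR adjusted p of 0.0963. The RefSeq window before the Tnc start (GRCm38.p6, chr4:64047016-64047265, minus strand) is shown in the orientation of the gene.

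Tnc: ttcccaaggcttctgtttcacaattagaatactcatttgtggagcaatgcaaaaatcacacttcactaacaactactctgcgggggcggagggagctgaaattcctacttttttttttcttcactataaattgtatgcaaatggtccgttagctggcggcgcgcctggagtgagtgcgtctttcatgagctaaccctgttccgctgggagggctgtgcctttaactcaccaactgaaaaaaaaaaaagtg

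Gzmb (ENSMUSG00000015437, chromosome 14, 56258838 to 56262260, minus strand) encodes granzyme B, a serine protease of cytotoxic lymphocytes that is also found in some myeloid cells. Its counts were 3, 0 and 1 with Hes1 loxP and 33, 16 and 23 with the deletion. All 3 deletion libraries were above the loxP libraries. The ratio was 18.9, with a 95% exact binomial interval of 7.06 to 71.1 (54.4 when loxP replicate 1, with 3 of the 4 loxP counts, was left out, and 12.05 when replicate 2 was). The fitted log2 fold change was 4.09 ± 0.68 (SE), with an edgeR adjusted p of 0.0314. The call was lost under 6 of 18 alternatives, among them each of 4 left-out libraries: Hes1 deletion replicates 1 and 3 and Hes1 loxP replicates 2 and 3 of the Notch2 mutant (adjusted p 0.141, 0.0927, 0.268 and 0.249).

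Gzmb lies in the granzyme cluster of chromosome 14, and its neighbours Gzmc and Gzmd, also granzymes, had values in the same direction. Gzmc was at 0.940, 0.558 and 0.844 CPM with Hes1 loxP and 2.26, 1.93 and 2.12 CPM with the deletion (log2 fold change 1.41 ± 0.49, edgeR adjusted p = 0.835). Gzmd was at 1.45, 0.558 and 0.90 CPM and at 2.75, 1.56 and 2.31 CPM (1.18 ± 0.42, edgeR adjusted p = 0.835). In neither did the groups overlap, and neither passed the test. No other lymphocyte gene was called, and of 14 on the list 5 were abundant enough to test. Of these 5, Gzmb among them, 4 had positive values, and the T cell gene Cd4 had a negative value (log2 fold change -0.35). Cd3e, a T cell receptor chain, had 2 counts over the loxP libraries and 4 over the deletion libraries, Nkg7 of cytotoxic cells had 8 and 13, and Gzma had 2 and 5. Over the whole list the summed level was 15.4 to 19.2 CPM with Hes1 loxP and 18.5 to 22.4 CPM with the deletion, and the part of other cells in the Gzmb result was not tested. The window before the RefSeq start of Gzmb is shown with its N boxes in capitals (GRCm38.p6, chr14:56262335-56262584, minus strand, 74 bases upstream of the GENCODE start).

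Gzmb: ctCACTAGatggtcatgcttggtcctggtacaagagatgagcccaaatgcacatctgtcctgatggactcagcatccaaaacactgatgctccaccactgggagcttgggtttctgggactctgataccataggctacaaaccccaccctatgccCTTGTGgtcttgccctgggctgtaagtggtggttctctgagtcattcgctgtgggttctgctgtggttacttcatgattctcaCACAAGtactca

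The windows were searched on both strands for the 2 DNA sequences known for Hes1, the N box CACNAG and the class C sequence CACGNG, where CACGAG counts as both. Ctsk, Celf3 and Tnc held neither in the windows shown. RefSeq gives 7 windows for Celf3 and 2 for Tnc, and only the window nearest the GENCODE start was examined for each. Gzmb held 3 N boxes, beginning 248, 95 and 12 bases before the start, and no class C match. Among 32851 RefSeq windows of the same 250 bases, 36.7% held an N box, 23.5% a class C sequence and 49.4% either, so a match is common. Hist1h2al had no entry.

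**Figure D1:**
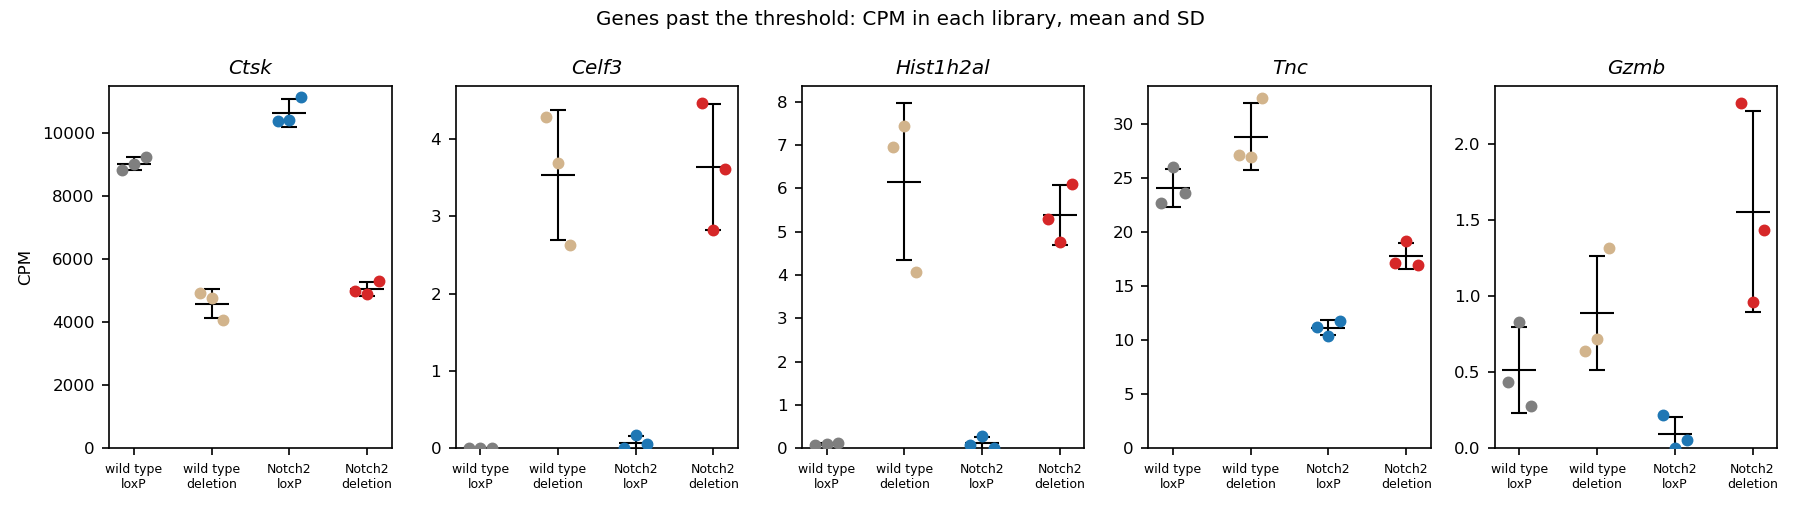
CPM of the 5 called genes in each of the 12 libraries (points), with the mean and SD of each group of 3 (bars), on a linear axis from 0 that differs between panels. Ctsk is at 4876 to 5294 CPM in the Notch2 mutant deletion libraries against 10367 to 11132 CPM with Hes1 loxP, and the other 4 genes are higher in the deletion libraries, Celf3 and Hist1h2al by the same pattern in wild type cells.

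**Figure D2:**
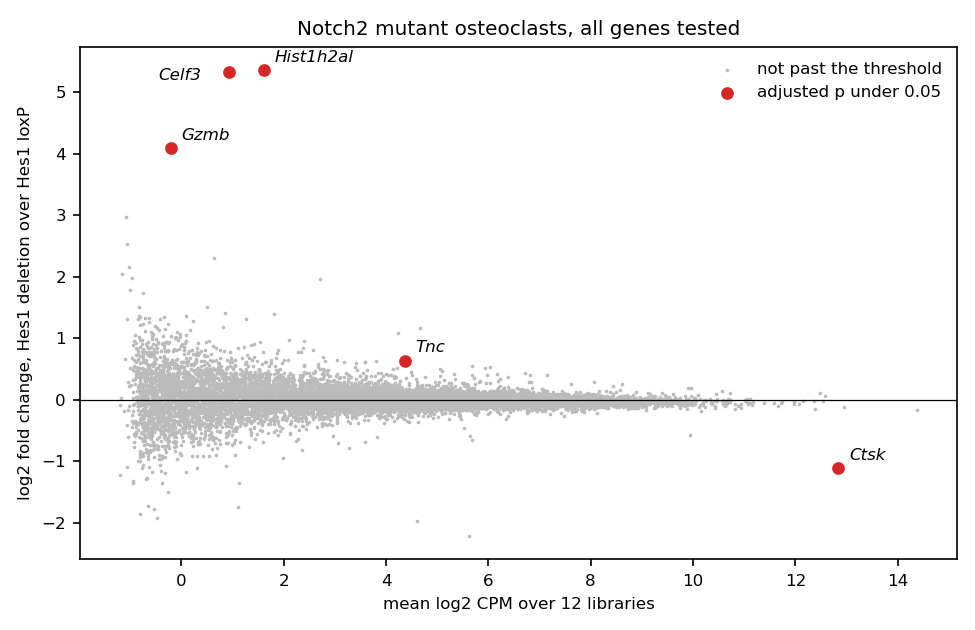
Log2 fold change of Hes1 deletion over Hes1 loxP in Notch2 mutant cells (vertical axis) against the mean log2 CPM over 12 libraries (horizontal axis) for the 13403 genes tested, with the 5 called genes in red and named. Most genes lie close to 0, Ctsk is the called gene of highest abundance, and Celf3, Hist1h2al and Gzmb lie at low abundance.

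Of the 5 called genes, Ctsk and Celf3 lie 1.02 Mb apart on chromosome 3. Within 5 Mb of the start of Ctsk, 106 other genes were tested, and 15 of them, or 14.2%, had an unadjusted p under 0.05, against 4.76% of all genes. Celf3 was the only one called. Of these genes Tmod4, which encodes a tropomodulin of muscle and lies 0.375 Mb away, had 0, 1 and 3 counts with Hes1 loxP and 11, 12 and 10 with the deletion, a ratio of 8.65 (3.08 to 33.6, 95% exact binomial, and 22.2 when loxP replicate 3 was left out). Hist2h2be, an H2B histone gene at 0.722 Mb, was lower, at 69.6, 64.0 and 72.6 CPM against 46.0, 38.9 and 48.8 CPM. Its log2 fold change was -0.66 ± 0.12 (SE) and its edgeR adjusted p 0.113, and it passed when only the 6 Notch2 mutant libraries were fitted (adjusted p 0.00268). Gm20633 and Gm20634, annotated on opposite strands over Hist2h2aa1 in the same histone cluster, had log2 fold changes of 0.94 ± 0.32 and -0.91 ± 0.36 (SE), neither past the test, and reads of these overlapping genes may be mixed. Ctss, the cathepsin gene next to Ctsk at 0.0275 Mb, was at -0.12, and Arnt on its other side, which encodes a partner of bHLH-PAS transcription factors, at -0.08. The Notch2 gene, which carries the mutation in all 6 libraries, lies 2.51 Mb from Ctsk.

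In the wild type comparison, which shares no library with this one, 21 of the 106 genes, or 19.8%, had an unadjusted p under 0.05, against 5.93% of all genes. In 8 genes this held in both comparisons, which is 53.3% of the 15 and 38.1% of the 21, and all 8 had the same sign in both: S100a11, Celf3, Selenbp2, Tmod4, Hist2h2be, Gm20634, Gm20633 and Gpr89. Outside the window 77 genes had p under 0.05 in both, 12.4% of those in the mutant and 9.96% of those in wild type, and 64 of the 77 had the same sign. The window around Celf3, which overlaps that of Ctsk, held 16 of 127 genes at p under 0.05 in the mutant (12.6%) and 22 in wild type (17.3%). In the mutant the windows around the remaining called genes held 1 of 76 such genes for Hist1h2al, 2 of 33 for Tnc and 6 of 109 for Gzmb.

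**Figure D3:**
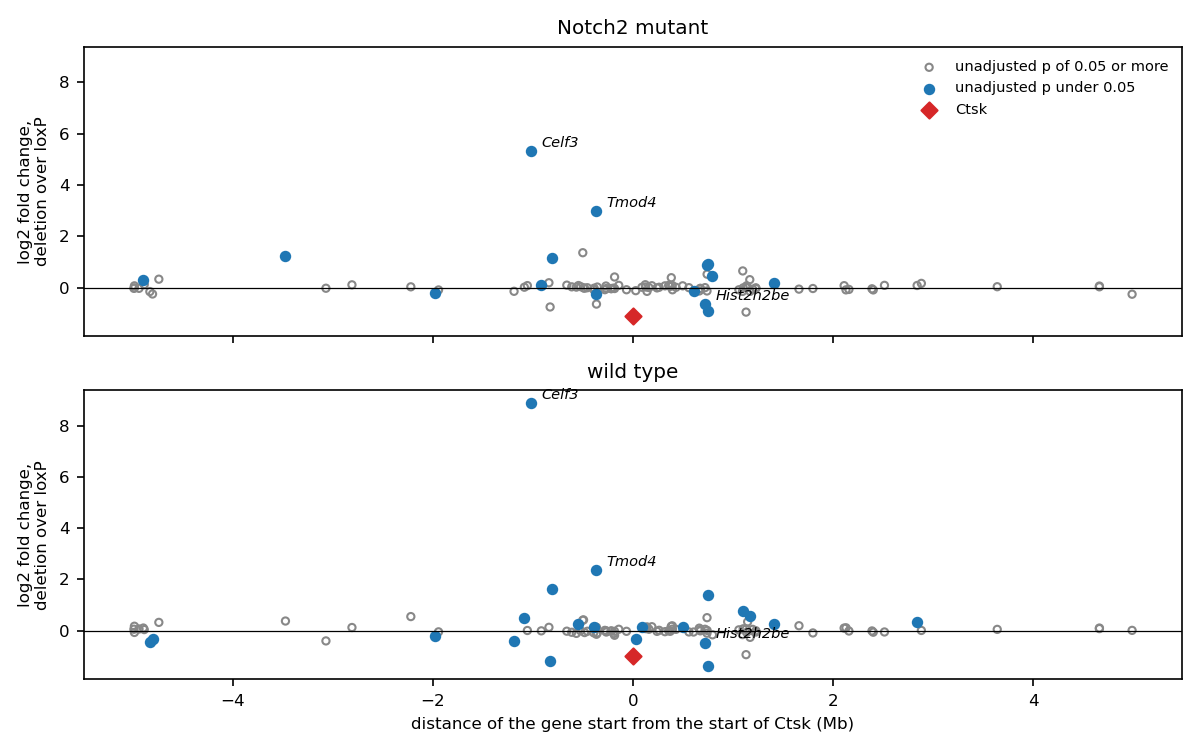
Log2 fold change of Hes1 deletion over Hes1 loxP (vertical axes) for the 106 genes tested within 5 Mb of Ctsk, by the distance of their start from that of Ctsk in Mb (horizontal axis), in Notch2 mutant cells (top) and wild type cells (bottom). Filled points have an unadjusted p under 0.05, 15 in the mutant and 21 in wild type, and Celf3, Tmod4 and Ctsk hold similar places in both panels.

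Interferon response genes had the highest median of all lists with at least 5 tested members. All 22 on the list were tested, and all 22 were positive, where 49.0% of all genes were. The list was chosen with earlier results of these data known. Its genes also moved together between libraries, so the 22 signs are not separate observations. The median log2 fold change over the list was 0.41 (0.17 to 0.97), against -0.002 for all genes. None was called, while 15 of the 22 had an unadjusted p under 0.05 in the higher direction, where 2.49% of all genes did. In 14 the deletion libraries lay wholly above the loxP libraries, as they did in 8.1% of all genes, and in 13 after TMM scaling, against 5.11%. Ifih1, the sensor of double-stranded viral RNA known as MDA5, was at 29.4, 25.2 and 24.97 CPM with Hes1 loxP and 36.2, 33.5 and 36.9 CPM with the deletion (0.39 ± 0.09, edgeR adjusted p = 0.416). Ddx58, which encodes the related sensor RIG-I, was at 78.4, 63.1 and 61.0 CPM against 94.6, 80.3 and 91.7 CPM (0.37 ± 0.09, edgeR adjusted p = 0.639). Their groups did not overlap. Dhx58, the third gene of that sensor family and not on the list, was at 36.7, 27.1 and 29.3 CPM against 42.7, 42.5 and 42.0 CPM (0.43 ± 0.10, edgeR adjusted p = 0.356), and Dhx58os is annotated on its opposite strand. Oas2, an activator of antiviral RNA decay, was at 0.41 ± 0.11 and Rtp4 at 0.55 ± 0.14.

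The Hes1 loxP libraries differed among themselves in these genes. Taking for each library the median over the 22 genes of the log2 ratio to the wild type Hes1 loxP mean, the Notch2 mutant Hes1 loxP libraries were at -0.10, -0.52 and -0.50 and the deletion libraries at 0.06, -0.04 and 0.10. Replicate 1 of Hes1 loxP lay nearer to the deletion libraries than to its own group. Left out in turn, the 6 libraries gave list medians of 0.32, without Hes1 loxP replicate 2, to 0.55, without Hes1 loxP replicate 1. In the last of these fits Dhx58 and Usp18 passed the edgeR test (adjusted p 0.0325 and 0.0486). The wild type Hes1 loxP libraries were themselves spread, at 0.32, -0.17 and -0.24. In wild type cells the list had a median of 0.09, and the difference between the genotypes had an unadjusted edgeR p under 0.05 for 6 of the 22 genes, against 3.78% of all genes, and was called for none.

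Genes of stromal cells and osteoblasts, which can be carried along in bone marrow cultures, were also higher by value. Of 24 on the list 21 were tested, 19 had positive values and the median was 0.30, with none called. Their summed level was 449, 341 and 471 CPM in the Hes1 loxP libraries and 563, 510 and 457 CPM in the deletion libraries, so the groups overlapped. Postn, the matrix protein periostin, was at 3.98, 1.396 and 4.39 CPM against 6.11, 6.98 and 4.30 CPM (0.82 ± 0.28, edgeR adjusted p = 0.826). Col1a1, a chain of type I collagen, was at 84.2, 50.3 and 103 CPM against 132, 103 and 86.1 CPM (0.40 ± 0.18, edgeR adjusted p = 0.977). Replicate 2 of Hes1 loxP was the lowest library for the sum and for both genes, and without it the list median was 0.14. The scarce defining markers Cxcl12, Pdgfra and Bglap held at most 0.549 CPM in any of these libraries. Tnc and Tnn are matrix genes that such cells make, and the part of stromal cells in their values was not tested.

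Apart from Ctsk, no osteoclast gene was called. Of the 20 resorption enzymes and markers 19 were tested, 17 had negative values (14 on CPM without TMM factors) and the median was -0.07, below the -0.002 of all genes, and it was -0.04 without Hes1 loxP replicate 3. Mmp9 was at -0.16 ± 0.08, creatine kinase Ckb at -0.15 ± 0.08 and Acp5 at -0.12 ± 0.08. For Acp5 the libraries overlapped, at 9027, 8418 and 9320.1 CPM with Hes1 loxP and 8414, 7855 and 8925 CPM with the deletion. The fusion genes Dcstamp and Ocstamp were at -0.08 ± 0.06 and -0.09 ± 0.06. Among 26 genes of RANK signalling and osteoclast transcription, Nfatc1, the master regulator, was at -0.03 ± 0.05 and the RANK gene Tnfrsf11a at -0.05 ± 0.04, and the list ran from -0.11 to 0.09 with a median of -0.02, which was 0.01 on CPM without TMM factors. Of the 11 other lysosomal cathepsins tested none had an unadjusted p under 0.05, and their median was -0.02, or 0.01 on CPM without TMM factors or without Hes1 loxP replicate 3. Among repressors of osteoclast formation Cebpb was at 57.0, 48.5 and 48.8 CPM against 65.0, 66.1 and 60.0 CPM, groups that did not overlap (0.28 ± 0.09, edgeR adjusted p = 0.816).

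Genes of energy metabolism and acid secretion had small values, most of them negative. The genes of a list can move together between libraries, so such signs are not separate observations. All 17 vacuolar ATPase subunits tested, which acidify the resorption space, had negative values with a median of -0.06, as did each of the 18 tricarboxylic acid cycle genes, also at -0.06. So did 49 of 55 respiratory chain genes (median -0.05), 18 of 20 glycolysis genes (-0.10) and 19 of 22 tested genes of cholesterol synthesis and uptake (-0.08). None of these genes was called. Shifts this small move with the scaling: on CPM without TMM factors, where the median of all genes is 0.0281, the negative values number 16 of 17, 14 of 18, 40 of 55, 17 of 20 and 16 of 22. The glycolysis median was -0.19 without Hes1 loxP replicate 2 and -0.03 without Hes1 loxP replicate 3, and the median of the cholesterol genes -0.04 without the latter. Slc2a1, the glucose transporter GLUT1, had the smallest p among the glycolysis genes, at -0.21 ± 0.08 (edgeR adjusted p = 0.959). Glycolysis genes had a median of 0.12 in wild type cells, and Slc2a1 was the only one of the 20 with an unadjusted edgeR p under 0.05 for the difference.

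Notch pathway genes were not called. Of 35 receptors, ligands and mediators 30 were tested, with a median of -0.04 and 20 negative values (15 on CPM without TMM factors). The ligand gene Jag1 (0.02 ± 0.07), the receptor gene Notch1 (-0.09 ± 0.11) and Rbpj (-0.03 ± 0.05) each had an adjusted p above 0.9 in edgeR. Of 17 genes that Notch signals induce 7 were tested, 3 with positive and 4 with negative values, and their median was -0.09. With 1 library left out that median ran from -0.06 to 0.08, so it had no stable sign. The proto-oncogene Myc was at 0.09 ± 0.06 and the cyclin gene Ccnd1 at 0.07 ± 0.07, both on the positive side. Other members of the Hes and Hey family were scarce, and Hes6 alone passed the filter on low counts, at 0.03 ± 0.13. Hey1 had 7 counts over the loxP and 13 over the deletion libraries, Heyl 19 and 14, and Hes5 6 and 6. Of 12 genes known as targets of Hes1 repression only 2 were tested. Cdkn1c, the cell cycle inhibitor p57, was at 2.24, 1.95 and 2.53 CPM against 1.58, 1.20 and 1.43 CPM, so the deletion libraries were lower (-0.71 ± 0.28, edgeR adjusted p = 0.959). Cdkn1b, the inhibitor p27, was at 0.05 ± 0.07. Neurog3, which drives endocrine differentiation of the pancreas and is a textbook target of Hes1, had 0 counts in all 6 libraries, and a 0 at this depth allows up to 3 counts over a group.

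The remaining lists held no called gene. Of 18 fatty acid oxidation genes 14 had negative values, with Hadh at -0.16 ± 0.06 and the nuclear receptor gene Ppard at -0.17 ± 0.07, and of 24 podosome and actin ring genes 20 did, with a median of -0.04 (14 on CPM without TMM factors). Cell cycle genes had a median of 0.04, with 20 of 26 positive, but the median was 0.00035 without Hes1 deletion replicate 2 and 0.09 without Hes1 loxP replicate 2. Among inhibitors of cyclin-dependent kinases Cdkn2b, the inhibitor p15, was at -0.36 ± 0.13 (edgeR adjusted p = 0.835). Neutrophil granule genes had a median of -0.12, with Ngp at -0.45 ± 0.16, and the median was -0.23 without Hes1 loxP replicate 3 and -0.03 without Hes1 loxP replicate 2. Inflammatory cytokine and chemokine genes had a median of 0.08, which was 0.01 without Hes1 deletion replicate 2 and 0.14 without Hes1 loxP replicate 1. Ccl3, a chemokine, was at 3.61, 6.92 and 4.89 CPM with Hes1 loxP and 7.96, 8.42 and 5.98 CPM with the deletion, groups that overlapped (0.48 ± 0.21, edgeR adjusted p = 0.977).

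**Figure D4:**
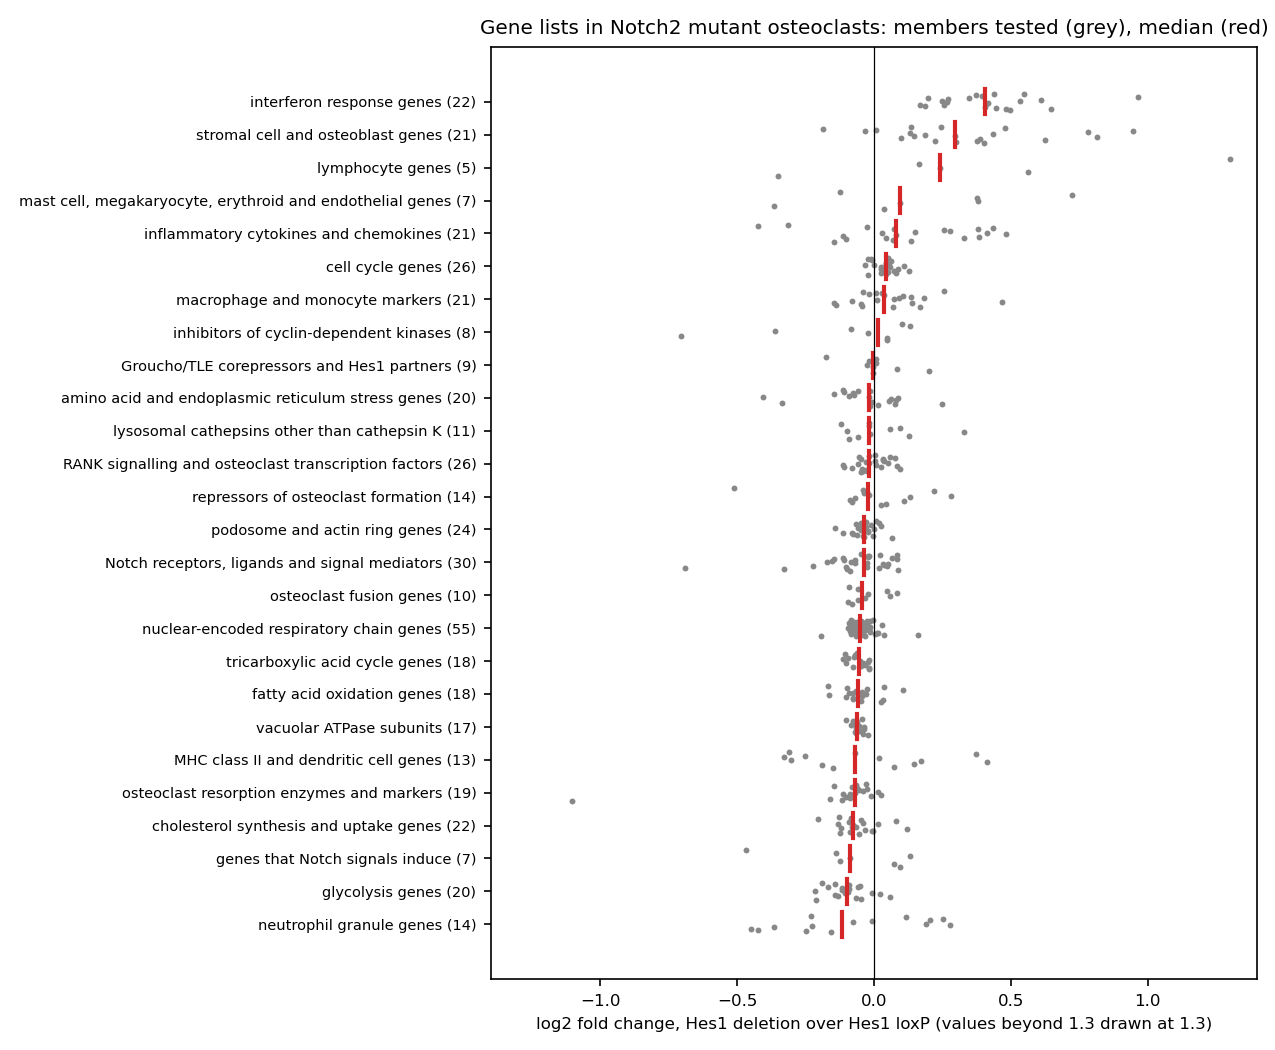
Log2 fold change of Hes1 deletion over Hes1 loxP in Notch2 mutant cells (horizontal axis) for the tested members of each gene list with at least 5 of them (grey points, number in brackets) and the list median (red), Gzmb being drawn at 1.3. Interferon response genes have the highest median, 0.41, the stromal list follows at 0.30 and lymphocyte genes at 0.24, and the others lie within 0.12 of 0, with Ctsk the lone low point of the resorption list.

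Further genes had groups that did not overlap and did not pass the test. Among the lower ones Rims2, a synaptic release gene, was at 3.69, 2.23 and 2.14 CPM with Hes1 loxP and 1.17, 1.02 and 1.00 CPM with the deletion (-1.34 ± 0.32, edgeR adjusted p = 0.499). Xlr3b, an X-linked gene, was at 4.92, 3.63 and 3.88 CPM against 0.343, 1.93 and 1.43 CPM (-1.74 ± 0.45, edgeR adjusted p = 0.639). Lars2, the mitochondrial leucyl-tRNA synthetase, was at -0.31 ± 0.09. Clba1 was at 49.4, 49.1 and 27.5 CPM against 25.2, 4.51 and 3.99 CPM, a value of -1.96 ± 0.56 with a spread within each group as large as the step between neighbouring levels. In wild type libraries it was at 25.7, 24.6 and 46.2 CPM with Hes1 loxP and 4.74, 26.1 and 4.45 CPM with the deletion, so its 12 values fell near 3 levels. Tdrd9, on the same chromosome 12 and named after its values were seen, had a log2 fold change of -2.21 (edgeR adjusted p = 0.816). Among the higher ones Fcrls, a myeloid Fc receptor-like gene, was at 3.04, 3.18 and 3.15 CPM against 6.86, 4.99 and 4.67 CPM (0.78 ± 0.19, edgeR adjusted p = 0.46).

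The deletion effect was then compared with that in wild type cells. In wild type, Ctsk had a log2 fold change of -0.99 ± 0.07, one of 5 genes called there (0.0373%), Celf3 rose from 0 to 183 counts and Hist1h2al from 5 to 320. The test of the difference between the genotypes called 0 genes in edgeR, with 506 genes, or 3.78%, at an unadjusted p under 0.05, and it called 0 in DESeq2, 0 in limma-voom and 63 in edgeR with no filter on low counts. For Ctsk the difference was -0.11 ± 0.10 (SE, unadjusted p = 0.270 in edgeR). Tnc and Gzmb had larger values in the mutant. Tnc was at 24.1 ± 1.74 CPM with Hes1 loxP and 28.9 ± 3.12 CPM with the deletion in wild type (SD, n = 3), a log2 fold change of 0.23 ± 0.09, and the difference of 0.41 ± 0.13 had an edgeR p of 0.00643, or 0.999 adjusted. Gzmb had 6, 16 and 5 counts in wild type Hes1 loxP and 11, 13 and 21 in wild type deletion libraries, which overlapped. Its difference between genotypes of 3.38 ± 0.92 had an unadjusted edgeR p of 0.00183 and an edgeR adjusted p of 0.999. Without wild type Hes1 deletion replicate 3 the test of the difference called 12 genes, 5 higher and 7 lower. The higher ones were Msr1, a scavenger receptor, C5ar1, a complement receptor, Ccl2, a chemokine, Slc7a8 and Dab2. The lower ones were Egln3, an oxygen-sensing prolyl hydroxylase, Bnip3, a mitophagy receptor, Narf, H1f0, Ak4, Ndrg1 and Mxi1. They were named after their values were seen.

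Of the 21 macrophage genes tested, 14 had positive values in the mutant with a median of 0.04. That median had no stable sign, being -0.02 without Hes1 loxP replicate 2 and 0.11 without Hes1 loxP replicate 1. In wild type, where 50.5% of all genes were positive, 17 had negative values with a median of -0.16. For 6 of the 21 the difference had an unadjusted edgeR p under 0.05, against 3.78% of all genes, and for none an adjusted p under 0.05. Fcgr1, a high-affinity receptor for antibodies that lies 0.795 Mb from Ctsk, was at 27.0, 21.9 and 21.03 CPM with Hes1 loxP and 30.3, 32.1 and 35.9 CPM with the deletion in the mutant. Its groups did not overlap, at 0.47 ± 0.14 (edgeR adjusted p = 0.816), and its wild type value was -0.16. Genes of MHC class II and dendritic cells stood at a median of -0.07 in the mutant and 0.51 in wild type, with 5 of 13 at an unadjusted edgeR p under 0.05 for the difference, against the same 3.78% of all genes. The mutant median was -0.13 without Hes1 loxP replicate 2 and 0.05 without Hes1 loxP replicate 1. The chemokine gene Ccl12 was at 0.38 ± 0.31 in the mutant and -1.28 ± 0.26 in wild type, and its difference of 1.66 ± 0.40 had an edgeR p of 0.000605 and an adjusted p of 0.999.

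Lastly, the genes that differed between the Notch2 mutant and wild type with Hes1 loxP were followed into the deletion libraries. That comparison called 104 genes, or 0.776%, and it uses the same 3 Notch2 mutant Hes1 loxP libraries, so a value that is high or low there by chance gives the deletion comparison a value of the opposite sign. The levels are therefore given side by side, as means of wild type loxP, mutant loxP, wild type deletion and mutant deletion. Tnc was at 24.1, 11.2, 28.9 and 17.8 CPM, so that the mutant deletion libraries lay between mutant and wild type loxP libraries. Tnn was at 3.12, 1.19, 5.81 and 3.27 CPM. Pdk2, a kinase that restrains pyruvate dehydrogenase, was at 14.1, 21.3, 15.5 and 18.0 CPM. Its deletion libraries, at 17.6, 16.2 and 20.2 CPM, overlapped the mutant loxP libraries at 23.5, 18.7 and 21.8 CPM. Ccl12 was at 5.08, 1.501, 2.09 and 1.99 CPM, low in the 3 groups other than wild type loxP. Il1b, the cytokine interleukin 1 beta, was at 3.76, 4.13 and 4.39 CPM in mutant loxP and 4.74, 3.31 and 3.37 CPM in mutant deletion libraries, which overlapped. Of the genes named in this paragraph, Tnc alone was called in the deletion comparison.

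**Figure D5:**
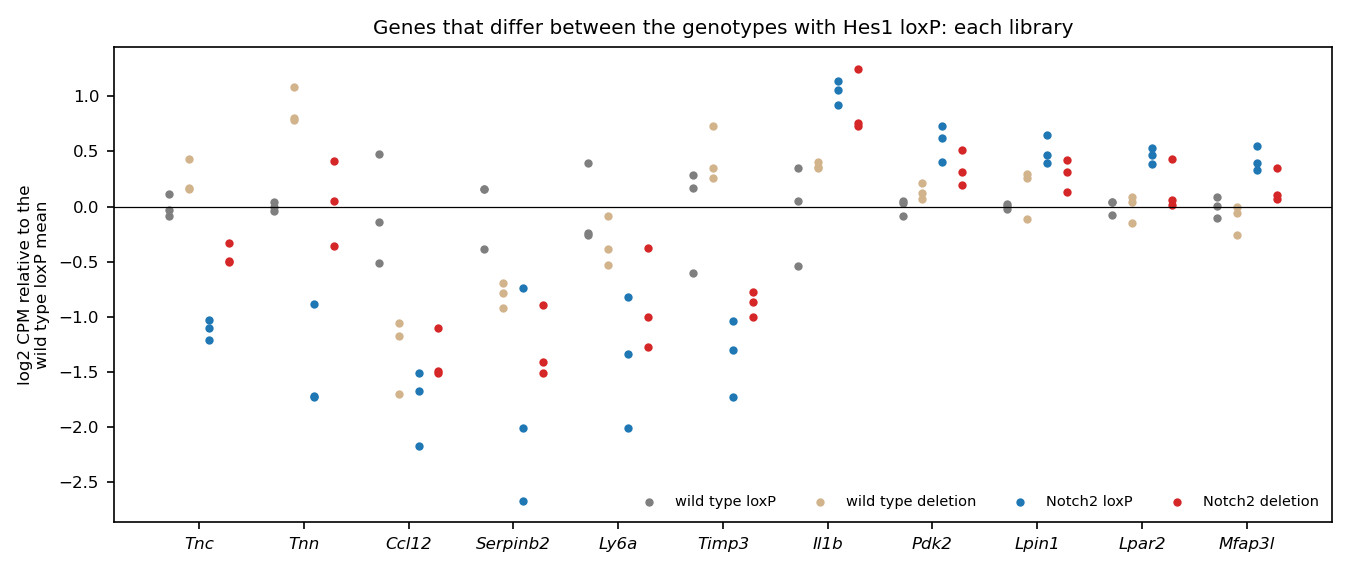
Log2 CPM relative to the wild type Hes1 loxP mean (vertical axis) in each of the 12 libraries for Tnc and genes with the largest fold differences between the genotypes with Hes1 loxP (horizontal axis). For Tnc the Notch2 mutant deletion libraries (red) lie above the mutant loxP libraries (blue) and below wild type, while for Il1b, Pdk2, Lpin1 and Serpinb2 the red and blue points overlap.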

How the data were processed

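RNA of 12 libraries was sequenced as paired 75 bp reads from a stranded mRNA kit in 1 pool, per the labels. The authors deposited raw read counts per Ensembl gene for each library, and the submitters' processing notes name HISAT2, SAMtools, Picard, HTSeq, DESeq2 and GRCm38. No source used here gives the strand setting or the annotation release. Summary lines of unassigned reads (15.8% to 19.0% of all) were left out of library sizes. Of 55414 gene identifiers 52133 were named from GENCODE M21.

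Counts were tested with edgeR 4.0.16 (quasi-likelihood F-test, TMM scaling, a filter at a minimum count of 10 and total of 15) in R 4.3.3. A single fit with 4 group means covered all 12 libraries, and p-values were two-sided and adjusted by Benjamini-Hochberg over 13403 genes at 0.05. The script was tested on simulated data. Values after ± are SE for log2 fold changes and SD for CPM. Each edgeR SE was back-calculated as the absolute log2 fold change over the square root of the F statistic. For Celf3, Hist1h2al and Gzmb, with few loxP counts, it can understate the uncertainty. Scarce genes got ratios of summed counts with exact binomial 95% intervals, which cover counting error only. Libraries held 13832368 to 19293772 counts. Alternatives were DESeq2 1.42.0, RLE scaling, a mean count of at least 50 or no filter, limma-voom (limma 3.58.1), the Notch2 mutant libraries alone, a replicate block, a minimum fold and each library left out.

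The members and lists were chosen with earlier results of these data known. Named were Hes1, Notch2, every called gene, up to 4 genes near each, the next 10 genes in each direction with groups that did not overlap, up to 4 genes of each list and the genes with the largest Notch2 effects. Acp5, Nfatc1, Tnfrsf11a, Usp18, Jag1, Notch1, Rbpj, Arnt, Cxcl12, Pdgfra, Bglap, Gm20633, Gm20634 and the histone copies were named after their values were seen. Cd3e, Nkg7 and Gzma were named outside these rules. Promoter sequences are from RefSeq on GRCm38.p6, which matched 4 of the 5 called genes.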

Additional observations from a re-analysis of the deposited data

How the results depend on the processing

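The count of 5 called genes was 5 with RLE scaling, 7 by DESeq2, 6 in the Notch2 mutant libraries alone and 4 with a log2 fold change of at least 1. It was 3 by limma-voom, 2 among genes whose mean count reached 50, a floor that Celf3, Hist1h2al and Gzmb miss, and 110 with no filter on low counts (77 higher, 33 lower, 25080 genes), and the cause of this last rise was not tested. With 1 library of the compared groups left out it ran from 3, without Notch2 mutant Hes1 loxP replicate 2, to 6, and with 1 wild type library left out, an alternative chosen after seeing the data, from 5 to 6. With the replicate block it was 4, Gzmb being lost at an edgeR adjusted p of 0.0639. Same-numbered libraries did not all deviate together (correlations 0.06, 0.13 and -0.002), so the numbers were not taken as pairs.

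Ctsk, Celf3 and Hist1h2al were called under every alternative that tested them. Of 143 uncalled genes that the naming rules picked, 27 passed under at least 1 alternative. Of these, 3 (Tnn, Dhx58 and Hist2h2be) passed under one other than no filter. Usp18, named outside the rules, passed without Notch2 mutant Hes1 loxP replicate 1 (edgeR adjusted p 0.0486). The log2 fold changes of 7 uncalled genes changed sign, in each case with 1 library left out, over which they ran from -0.102 to 1.0498 for Serpinb2, -0.00517 to 0.0525 for Hes6, -0.600015 to 0.416 for Gata3, -0.145 to 0.0340 for Id1, -0.0781 to 0.408 for Tle2, -0.0778 to 0.0291 for Aes and -0.952 to 0.133 for Itga2b. The test of the difference between genotypes called 63 genes with no filter (41 higher, 22 lower) and 0 to 12 with 1 library left out, 12 without wild type Hes1 deletion replicate 3. Hes1 had a ratio of 0.227 to 0.433 with 1 library left out.

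List medians with 1 library left out ran from -0.0614 to -0.0210 for the Notch pathway, -0.0579 to 0.0760 for genes that Notch induces (-0.0036 in the Notch2 mutant libraries alone), -0.0362 to 0.0201 for repressors of osteoclast formation, -0.0825 to -0.0317 for vacuolar ATPase subunits, -0.0597 to -0.0337 for the respiratory chain, -0.0493 to 0.0684 for inhibitors of cyclin-dependent kinases, -0.0481 to -0.0189 for podosome genes, -0.0978 to -0.0356 for resorption enzymes, -0.0612 to -0.0233 for fusion genes, -0.0472 to 0.0136 for other cathepsins, -0.191 to -0.0349 for glycolysis, -0.103 to -0.0372 for cholesterol genes, -0.0602 to -0.0364 for fatty acid oxidation, 0.000354 to 0.0943 for the cell cycle, -0.235 to -0.0326 for neutrophil, 0.0142 to 0.137 for inflammatory, -0.0189 to 0.107 for macrophage, -0.129 to 0.0486 for MHC class II and 0.161 to 0.326 for lymphocyte genes, and 0.00169 to 0.413 for mast cell, megakaryocyte and endothelial genes. CPM without TMM factors, also chosen after seeing the data, moved the median of all genes from -0.00245 to 0.0281. Depth limits the folds of the scarce genes: Celf3, Hist1h2al and Gzmb had 4, 6 and 4 counts over the loxP libraries, which leaves wide intervals.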
